A study of Mus musculus with 4 samples.

Results

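The replication-dependent histone genes were taken as all rows of the count table with a GENCODE M21 symbol that begins with Hist1h, Hist2h, Hist3h or Hist4h, that were annotated as protein coding and that held at least 20 counts summed over the 4 libraries. This rule gave 46 genes of 53845 rows, and 67 protein-coding rows carried such a symbol. The libraries were made from total RNA of small-intestinal crypts of C57BL/6 mice, released with EDTA and passed through a 70 µm strainer. WT mice, whose genotype is given as wildtype (2 libraries), were compared with Vil-CREPTKO mice (2 libraries), in which villin-Cre removes the floxed CREPT gene (Rprd1b) in the intestinal epithelium. Male and female mice of 6 to 8 weeks were used, and no further treatment separated the groups. Cells other than epithelium keep the gene in this model.

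Histone mRNAs of this class are made in S phase, when new nucleosomes must be assembled behind the replication fork. Most of them have no introns and end in a short stem-loop in place of a poly(A) tail. The stem-loop is bound by SLBP, and the U7 snRNP directs the endonuclease CPSF3 to cut just after it. Some of the same genes also give longer, polyadenylated transcripts, mainly in cells that have left the cell cycle. CREPT binds the C-terminal domain of RNA polymerase II. Crypts hold the cycling progenitors of the intestinal epithelium.

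A stem-loop was found in the annotated transcript of 32 of the 46 genes (69.57%). It was searched as 16 bases that open with GG, close with CC and pair over at least 5 of 6 stem positions around a loop that begins with TT, within 150 bases after the stop codon. The same search matched 168 of 37474 other coding transcripts with that much sequence (0.4483%). Of the 38 histone genes whose transcript model had 40 or more bases after the stop codon, 32 held it (84.21%). The 32 stem-loops had 5 different cores. One gene with each core follows, 5′ to 3′ in GRCm38 and with the stem-loop in capitals, to show that the cores differ in paired stem bases and in the last bases of the loop.
Hist1h1c (chr13:23739507-23739532, plus strand): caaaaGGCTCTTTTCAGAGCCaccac
Hist1h4h (chr13:23531453-23531478, plus strand): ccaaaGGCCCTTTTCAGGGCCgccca
Hist1h3c (chr13:23745042-23745067, minus strand): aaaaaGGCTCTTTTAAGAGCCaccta
Hist2h4 (chr3:96262934-96262959, minus strand): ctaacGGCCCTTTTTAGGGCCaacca
Hist1h4j (chr13:21735432-21735457, plus strand): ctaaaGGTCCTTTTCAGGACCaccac

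The core of Hist1h1c was carried by 18 genes and that of Hist1h4h by 7. The core of Hist1h3c was carried by 4 genes and that of Hist2h4 by 2, the other being Hist1h4i. Hist1h4j alone had its core. The distance from the stop codon was 24 bases in Hist1h1c and Hist1h3c, 29 in Hist1h4j, 31 in Hist1h4h and 38 in Hist2h4.

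The transcript models differed in where they ended. In 13 genes the model ended near the stem-loop. In 19 genes it ran more than 100 bases past it, and 7 of these had a polyadenylation signal (AATAAA) in the last 50 bases. A further 10 genes had a short model with no match, in several cases one that stopped at the stop codon, and 4 had a long model with no match. The last group held Hist1h2bc and Hist2h2be. The model of Hist1h2bc had 2 exons and 742 bases after the stop codon. That of Hist2h2be had 1 exon and 2192 such bases, with AATAAA near its end. Hist1h1c had both features, with the stem-loop shown above and 840 further bases that ended with AATAAA nearby. These are properties of the annotation. Gene-level counts do not say which end was used, and whether poly(A) selection or depletion of ribosomal RNA preceded the libraries is not given in the sources used here.

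**Figure D1:**
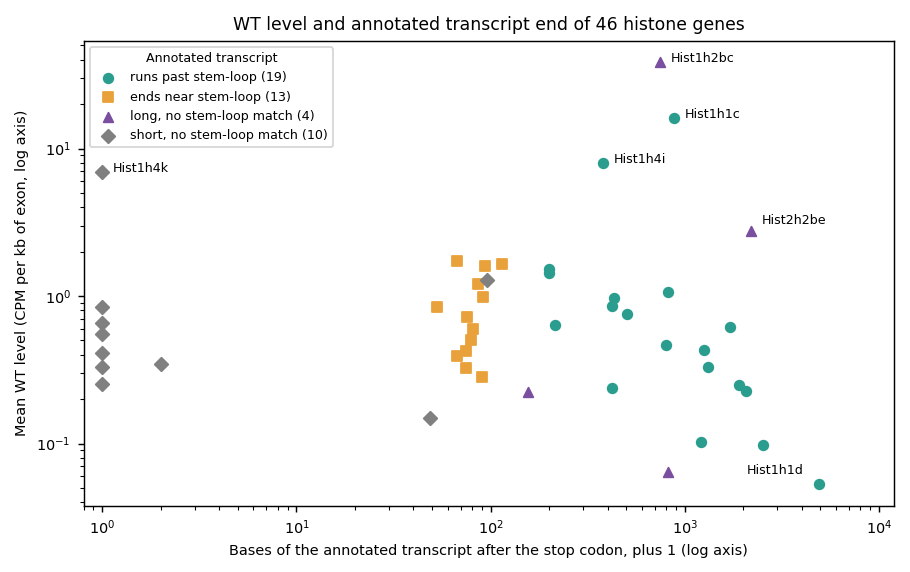
Mean WT level of the 46 histone genes in CPM (counts scaled to a common library total) per kb of exon (log axis) against the number of bases that the annotated transcript has after the stop codon, plus 1 (log axis), with symbols for the kind of transcript end and the number of genes of each kind in brackets. Hist1h2bc and Hist1h1c stood highest at 38.7 and 16.2 CPM per kb, and Hist1h1d was lowest at 0.0529. The exon bases include those on the horizontal axis, so a long model lowers the level per kb. Hist1h1d, with 4931 bases after the stop codon, had a mean WT level of 0.393 CPM. Hist1h4k, with 0 such bases, stood at 6.96 CPM per kb.

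The histone genes were read at low levels. Together they took between 0.0107% and 0.0186% of all counts of a library. The mean WT level ranged from 0.0529 to 38.7 CPM per kb of exon, with a median of 0.610, and 10 of 46 genes had a mean WT level above 1 CPM. A pair of genes held most of the counts. Hist1h2bc, an H2B gene on the plus strand of chromosome 13 (ENSMUSG00000018102, chr13:23684199-23692908), supplied 42.9% of the counts of all members in WT replicate 1 (95% Wilson interval 41.5 to 44.2) and 42.4% in WT replicate 2 (41.1 to 43.8). Its share was 52.8% (51.7 to 53.8) and 49.2% (48.0 to 50.3) in the Vil-CREPTKO libraries. With Hist1h1c, the gene of linker histone H1.2, the share was 66.6% and 66.8% in WT against 79.6% and 72.6% in Vil-CREPTKO. The intervals cover counting error only.

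The other 44 genes had far fewer reads, and 26 of the 46 had under 100 counts over the 4 libraries. Just inside the threshold lay Hist1h2ak with 23 counts in all and Hist1h2bl with 31. Just outside it lay Hist1h2bn, Hist1h2bp, Hist1h2ad and Hist2h2ac with 18 each. Of the 21 coding rows below the threshold, 7 were at 0 in every library, where the limit that 0 counts allow is 3 counts, or 0.0588 to 0.0690 CPM per library. Among these were Hist2h2aa1 and Hist2h2aa2, which share nearly all of their sequence. Of the windows of 50 bases in Hist2h2aa2, 100% also occurred in another histone row. The pseudogene Hist1h2al, no member and singled out after its values were seen, shared 67.6% of its windows, most of all with Hist2h2aa2, and had 31 and 43 counts in WT against 80 and 82 in Vil-CREPTKO. Near-identical sequence was common among the members too. In 18 of the 46, at least 50% of such windows also occurred in another histone row, so the counting could split or drop their reads and their values are uncertain. The figure was 29.4% for Hist1h2bc and 8.54% for Hist1h1c.

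**Figure D2:**
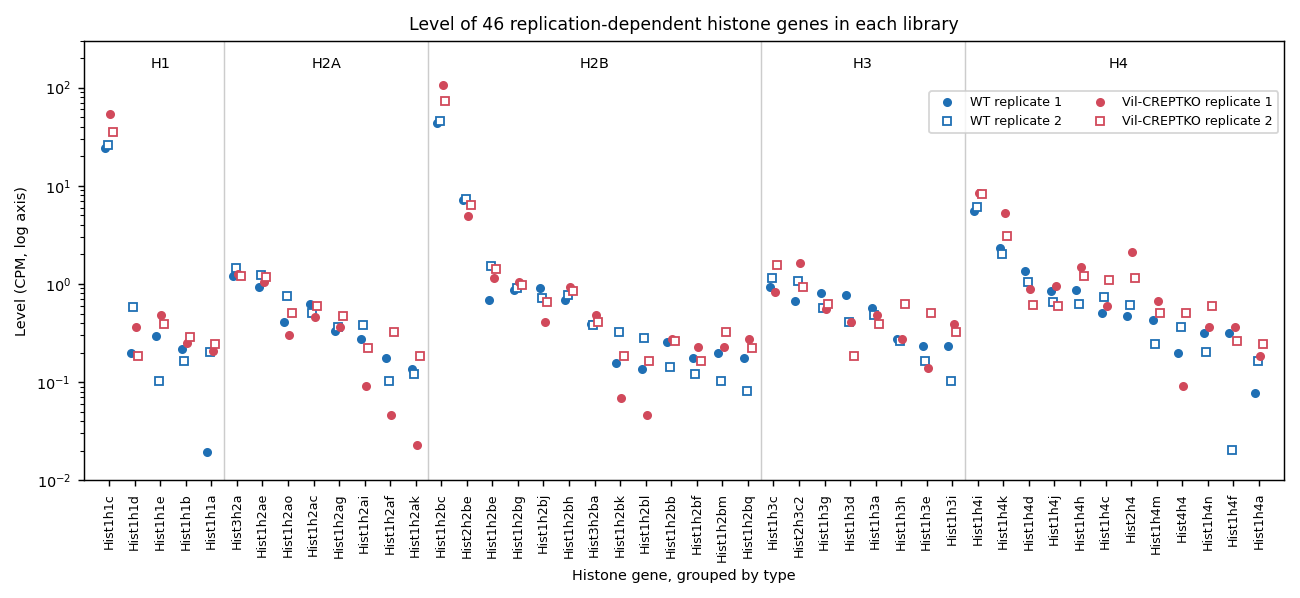
Level of each of the 46 histone genes in CPM (log axis) in the 4 libraries, grouped by histone type and ordered by mean WT level, with WT in blue and Vil-CREPTKO in red and circles and squares for replicates 1 and 2. Hist1h2bc and Hist1h1c lie above all other genes in every library, and in both the Vil-CREPTKO points lie above the WT points.

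The comparison of Vil-CREPTKO with WT asked which histone mRNAs differ when the crypt epithelium loses CREPT. Of the 46 genes, 39 had enough counts to be tested with edgeR's quasi-likelihood test, with adjustment of the p-values over the 17504 genes in the fit. Hist1h2bc rose in Vil-CREPTKO, and no other histone gene passed an adjusted p of 0.05 in this test. It was also the only one called higher when a log2 fold change above 1 was asked in addition. The background was 0.423% of all genes with an adjusted p under 0.05 and higher, and 0.297% with the fold threshold as well. None of the 39 was lower with an adjusted p under 0.05, against 2.29% of all genes, or 1.34% with a log2 fold change below -1. By unadjusted p under 0.05 the counts were 5 higher and 0 lower, where all genes had 4.49% and 9.76%. DESeq2 gave an adjusted p to 26 of the 46 members, with 2 higher, Hist1h2bc and Hist1h1c, and 0 lower. With the fold threshold it called 1 histone gene higher and 0 lower. Of the 28324 genes it fitted, which include genes given no adjusted p, 87 were called higher and 307 lower in this way. The share of all genes past an adjusted p of 0.05 alone was not taken for DESeq2. The libraries are of crypt tissue, so fewer or more cells of a type and less or more RNA per cell cannot be told apart.

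The log2 fold changes of the 39 tested genes had a median of 0.28, beside -0.0060 for all genes, with 28 positive and 11 negative. Of all genes, 49.1% were positive. Both Vil-CREPTKO libraries lay above both WT libraries in 19 of the 39 genes, and below them in 5. For all genes the shares were 21% and 24.2%. Set against the WT mean, Vil-CREPTKO replicate 1 had a median of 0.22 and replicate 2 one of 0.42. The 20 members with at least 100 counts, all tested, had a median of 0.21 with 14 positive. The 19 tested members with fewer counts had a median of 0.50.

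**Figure D3:**
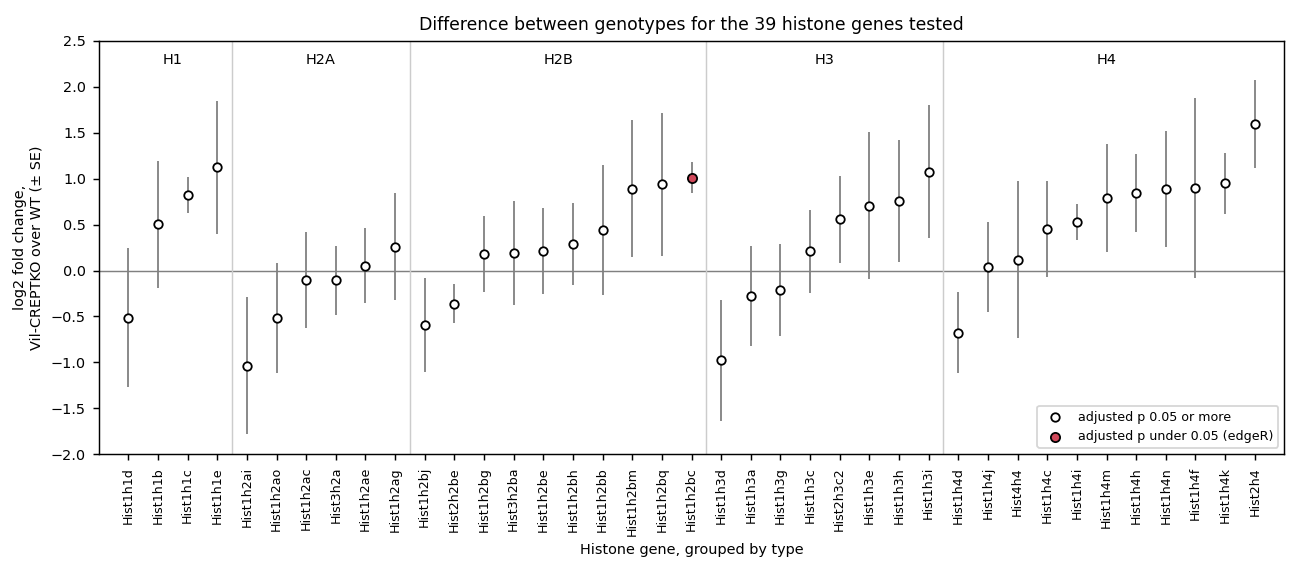
Log2 fold change of Vil-CREPTKO over WT with its SE from edgeR for the 39 histone genes tested, grouped by histone type and ordered by value, with the gene at adjusted p under 0.05 filled in red. Hist1h2bc, at 1.01, is that gene, and 10 of the 11 H4 genes lie above 0.

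Among the H2B genes, Hist1h2bc had 2245 and 2237 counts in WT against 4626 and 3615 in Vil-CREPTKO. This was 43.97 and 45.4 CPM against 106 and 73.6 CPM, with means of 44.7 ± 1.04 and 90.03 ± 23.2 CPM (SD, n = 2 each). The groups did not overlap, and replicate 1 of Vil-CREPTKO was the highest library. The log2 fold change was 1.01 (SE 0.17, adjusted p = 0.0208 by edgeR). Leaving out Vil-CREPTKO replicate 1 gave 0.72 and leaving out replicate 2 gave 1.26, so the fold threshold was passed or missed with the library kept. The adjusted p was 0.0137 and 0.000324 by edgeR in these fits, in which the lone Vil-CREPTKO library is assumed to vary like the WT pair. Hist2h2be, an H2B variant known from olfactory neurons, was the second H2B gene by level. It had 366 and 360 counts in WT against 216 and 310 in Vil-CREPTKO. Both Vil-CREPTKO libraries were below both WT libraries, but the log2 fold change of -0.36 (SE 0.21) had an adjusted p of 0.518 in edgeR, and was -0.20 without Vil-CREPTKO replicate 1. The 12 H2B genes other than Hist1h2bc summed to 11.8 and 12.7 CPM in WT, and to 10.1 and 11.9 CPM in Vil-CREPTKO. Of the 10 H2B genes tested, 8 had a positive log2 fold change, with a median of 0.25.

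Hist1h2bc stands head to head with the H2A gene Hist1h2ac. The annotated start of Hist1h2ac lies at position 23683948 on the minus strand and that of Hist1h2bc at 23684199 on the plus strand, with 250 bases between them. The window is shown because it holds most of the sequence between the starts of Hist1h2bc, which rose, and Hist1h2ac, which did not pass the test. It gives the 250 bases before the RefSeq start of Hist1h2ac (RefSeq, GRCm38.p6, chr13:23683960-23684209, minus strand), with the matches to TATAAA, to CCAAT and to the octamer ATTTGCAT on either strand in capitals.
Hist1h2ac: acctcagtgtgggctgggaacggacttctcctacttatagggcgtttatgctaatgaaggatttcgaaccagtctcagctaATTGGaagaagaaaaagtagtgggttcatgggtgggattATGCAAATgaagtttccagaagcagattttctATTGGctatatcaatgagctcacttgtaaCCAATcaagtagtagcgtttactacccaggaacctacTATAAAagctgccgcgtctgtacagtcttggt

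Despite the shared window, the levels on the sides of it were far apart. Hist1h2bc had a mean WT level of 38.7 CPM per kb and Hist1h2ac one of 0.229 CPM per kb. The counts of Hist1h2ac were 32 and 25 in WT against 20 and 29 in Vil-CREPTKO. Its log2 fold change was -0.11 (SE 0.52, adjusted p = 0.957 by edgeR), and its groups overlapped. The difference between the fold changes of the 2 genes was not tested, and 2 SE either side of that of Hist1h2ac spans -1.15 to 0.94. The ratio of the 2 genes per kb was 151 and 192 in WT against 497 and 268 in Vil-CREPTKO. The first exon of Hist1h2bc in the annotation is the one beside this window. In all, 5 H2A and H2B pairs of members stood head to head with at most 500 bases between their starts. In Hist1h2ae and Hist1h2bg the levels were alike, at 1.53 and 1.44 CPM per kb in WT, with log2 fold changes of 0.053 and 0.18. In Hist1h2ag and Hist1h2bj they were 0.720 and 1.74 CPM per kb, with log2 fold changes of 0.26 and -0.59. In Hist1h2bq and Hist1h2ao they were 0.0639 and 1.21 CPM per kb, with log2 fold changes of 0.94 and -0.51. The levels of this pair are uncertain. They rest on 9 and 4 WT counts over 2015 exon bases against 21 and 37 over 480. Of their windows, 97.3% and 93.5% occurred in another histone row. In Hist1h2bl, which had too few counts to be tested, and Hist1h2ai they were 0.553 and 0.840 CPM per kb. These pairs were picked out after the values were seen.

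Promoter windows were read for the 42 members that matched a RefSeq entry. Hist1h2bc, Hist2h2be, Hist2h4 and Hist1h3a had no match and are not covered. CCAAT on either strand was found in 78.6% of the members matched and in 33.9% of all 32851 windows. It was present in every H1, H2A and H2B member matched, in 85.7% of the H3 members and in 27.3% of the H4 members. TATAAA was found in 47.6% of the members and 12.4% of all windows. The octamer, the site named for Oct factors in H2B promoters, was found in 19.0% of the members and 1.60% of all windows. It occurred in 45.5% of the H2B and 37.5% of the H2A members and in none of the H1, H3 and H4 members. Such a match describes letters and not binding. Hist1h1c is shown as the second gene by level, with its CCAAT match in capitals (RefSeq, GRCm38.p6, chr13:23738557-23738806, plus strand).
Hist1h1c: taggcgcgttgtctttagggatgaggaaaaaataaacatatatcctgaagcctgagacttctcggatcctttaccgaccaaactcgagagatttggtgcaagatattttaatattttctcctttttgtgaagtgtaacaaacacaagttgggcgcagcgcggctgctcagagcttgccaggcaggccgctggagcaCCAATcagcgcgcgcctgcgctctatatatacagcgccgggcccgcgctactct

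The linker histone genes were led by Hist1h1c (ENSMUSG00000036181, chr13:23738808-23740367). It had 1240 and 1285 counts in WT against 2350 and 1722 in Vil-CREPTKO, or 24.3 and 26.1 CPM against 54.1 and 35.1 CPM. Both Vil-CREPTKO libraries lay above both WT libraries. The log2 fold change was 0.82 (SE 0.19), and the adjusted p of 0.0698 in edgeR missed the threshold. The call and the size depended on the Vil-CREPTKO library kept. The log2 fold change was 0.47 (adjusted p = 0.236 by edgeR) without Vil-CREPTKO replicate 1 and 1.11 (adjusted p = 0.00187 by edgeR) when replicate 2 was left out. The adjusted p was 0.00439 in DESeq2. Hist1h1b, the gene of H1.5, was second per kb of exon, though not in CPM. It had 11 and 8 counts in WT against 11 and 14 in Vil-CREPTKO. Hist1h1e, the gene of H1.4, had 15 and 5 counts against 21 and 19, a log2 fold change of 1.12 (SE 0.72, adjusted p = 0.557 by edgeR). This was 2.07 without WT replicate 1 and 0.56 without WT replicate 2. It overlaps Hist1h2be on the same strand, so their reads may be split. The 4 H1 genes other than Hist1h1c summed to 0.725 and 1.06 CPM in WT, and to 1.31 and 1.10 CPM in Vil-CREPTKO.

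The H4 genes, which encode the same core histone protein, were the type with the most positive values. Of the 11 tested, 10 had a positive log2 fold change, the median was 0.79, and in 6 both Vil-CREPTKO libraries were above both WT libraries (21% of all genes). None passed an adjusted p of 0.05 in edgeR, nor did any of the 8 H4 genes that had one in DESeq2. In edgeR 3 had an unadjusted p under 0.05, all higher (4.49% of all genes). Those were Hist1h4i, Hist1h4k and Hist2h4. Hist1h4i, the highest H4 gene per kb, had 282 and 297 counts in WT against 365 and 407 in Vil-CREPTKO. Its levels were 5.52 and 6.03 CPM against 8.40 and 8.29 CPM, and the log2 fold change was 0.53 (SE 0.19, adjusted p = 0.239 by edgeR). Hist1h4k had 119 and 99 counts against 232 and 151, with a log2 fold change of 0.95 (SE 0.33, adjusted p = 0.218 by edgeR), which was 0.50 without Vil-CREPTKO replicate 1. Of its sequence windows, 71.5% also occurred in another histone row.

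Hist2h4, whose stem-loop is shown above and whose model runs 1257 bases past it, had the largest log2 fold change of the 39. It had 24 and 30 counts in WT against 93 and 56 in Vil-CREPTKO. The log2 fold change was 1.60 (SE 0.48, adjusted p = 0.148 by edgeR), and only 1.01% of its windows occurred elsewhere. Summed over the 12 H4 genes, the level was 13.2 and 12.7 CPM in WT, and 21.5 and 18.1 CPM in Vil-CREPTKO, with means of 12.97 ± 0.356 and 19.8 ± 2.36 CPM (SD, n = 2 each). Hist1h4i and Hist1h4k made up 5.78 and 2.17 CPM of the WT mean, and 8.34 and 4.21 CPM of the Vil-CREPTKO mean. The H4 median was 0.49 among genes without a near-identical copy and 0.54 without Vil-CREPTKO replicate 2.

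No H2A or H3 gene had an adjusted or unadjusted p under 0.05 in edgeR. DESeq2 gave an adjusted p to 5 H2A and 5 H3 genes, and none of these passed. Of the 6 H2A genes tested, 2 were positive and 4 negative, with a median of -0.11. This median changed sign, to 0.047, without WT replicate 2, and to 0.054 when Vil-CREPTKO replicate 1 was left out. Hist1h2ae, the highest H2A gene per kb, had 47 and 61 counts in WT against 46 and 58 in Vil-CREPTKO. Hist1h2ao had 21 and 37 against 13 and 25, and 93.5% of its windows occurred in another histone row. Hist1h2ai had the most negative log2 fold change of the 39, at -1.03 (SE 0.75, adjusted p = 0.611 by edgeR), from 14 and 19 counts in WT against 4 and 11 in Vil-CREPTKO. It lay between -1.81 and -0.56 with 1 library left out. Summed H2A levels were 4.07 and 4.94 CPM in WT, and 3.61 and 4.68 CPM in Vil-CREPTKO, so the groups overlapped.

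Of the 8 H3 genes, all tested, 5 were positive and 3 negative. Their median of 0.38 fell to -0.21 without Vil-CREPTKO replicate 2 and was -0.28 among those without a near-identical copy, so it carried no stable direction. Hist1h3c, the highest H3 gene per kb, had 48 and 56 counts in WT against 36 and 77 in Vil-CREPTKO. Hist1h3g had 41 and 28 against 24 and 31. In both the groups overlapped. The 8 genes summed to 4.49 and 4.21 CPM in WT, and to 4.72 and 5.17 CPM in Vil-CREPTKO.

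**Figure D4:**
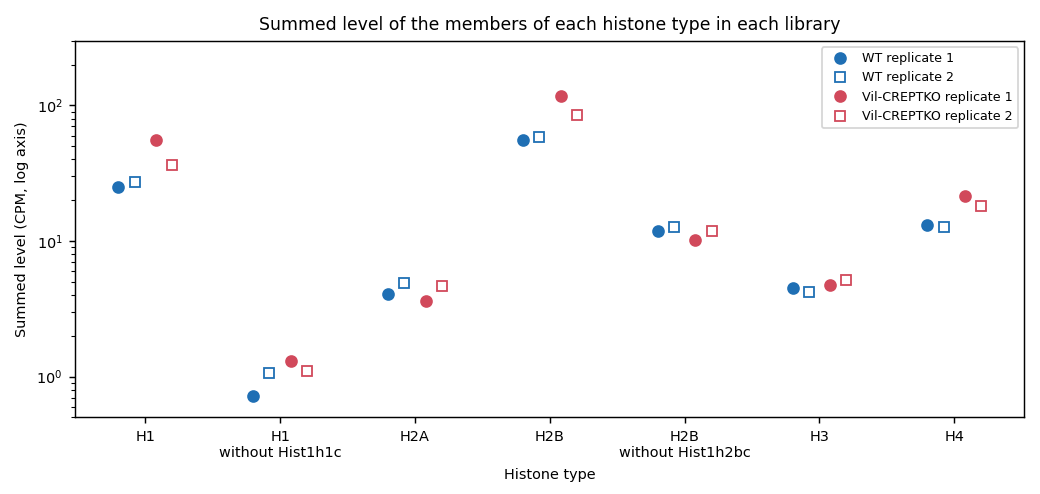
Summed level in CPM (log axis) of the members of each histone type in the 4 libraries, with H1 also shown without Hist1h1c and H2B without Hist1h2bc, WT in blue and Vil-CREPTKO in red. The H1, H2B, H3 and H4 sums lie above WT in both Vil-CREPTKO libraries, as do those of H1 without Hist1h1c, whereas the H2A sums overlap. For H2B without Hist1h2bc the Vil-CREPTKO sums reach only 10.1 and 11.9 CPM, beside 11.8 and 12.7 CPM in WT.

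Summed over all 46 genes, the level was 103 and 107 CPM in WT (105 ± 3.25, SD, n = 2), and 202 and 149.7 CPM in Vil-CREPTKO (176 ± 36.8, SD, n = 2). The log2 ratio of the means was 0.74. Without Hist1h2bc and Hist1h1c the sums were 34.3 and 35.6 CPM against 41.2 and 41.0 CPM, and the ratio was 0.23. The difference in summed level thus lay mainly in this pair of genes. With 2 libraries a group, a two-sided exact permutation test cannot give a p below 0.333, so the sums are reported with no test.

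By cluster, the Hist1 cluster held 40 members on chromosome 13 (chr13:21715763-23764406), of which 33 were tested, with a median log2 fold change of 0.44. This median was 0.15 without Vil-CREPTKO replicate 2, 0.23 without WT replicate 1 and 0.23 with at least 10 counts asked in every library. Its members lie in 2 blocks. The block of 17 members (chr13:21715763-22043676) summed to 12.9 and 12.8 CPM in WT, and to 18.5 and 17.2 CPM in Vil-CREPTKO. The block of 23 members (chr13:23531050-23764406), which contains Hist1h2bc and Hist1h1c, summed to 79.6 and 83.1 CPM against 173 and 122 CPM. Hist2 on chromosome 3 (chr3:96221119-96263311) held Hist2h4, Hist2h2be and Hist2h3c2. It summed to 8.31 and 9.0004 CPM in WT, and to 8.74 and 8.39 CPM in Vil-CREPTKO, with Hist2h4 above WT and Hist2h2be below it. Hist3 on chromosome 11 (chr11:58948920-58956830) held Hist3h2a, with 61 and 72 counts in WT against 55 and 59, and Hist3h2ba, with 20 and 19 against 21 and 20. Hist3h2a overlaps Trim17 on the same strand, whose counts were 41 and 41 in WT against 9 and 14 in Vil-CREPTKO. Hist4h4, alone in its cluster on chromosome 6 (chr6:136801553-136804415), had 10 and 18 counts in WT against 4 and 25 in Vil-CREPTKO.

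Grouped by transcript model, the 3 tested genes with a long model and no stem-loop match had log2 fold changes of 1.01 (Hist1h2bc), 0.94 (Hist1h2bq, with 36 counts in all and 97.3% of its windows in another histone row) and -0.36 (Hist2h2be). The 19 whose model ran past the stem-loop had a median of 0.19, and the 11 tested genes whose model ended near it had 0.44. The 6 tested genes with a short model and no match had 0.63.

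The histone genes listed as replication-independent, most of which give mRNAs with a poly(A) tail, were read at much higher levels. Their 11 genes summed to 1977 and 1873 CPM in WT, and to 2029 and 2056 CPM in Vil-CREPTKO. None had an adjusted p under 0.05 in edgeR or DESeq2, and 1 was higher and 1 lower by unadjusted p under 0.05 in edgeR. Their median log2 fold change was 0.17. H3f3a, an H3.3 gene, had 0.30 (SE 0.13, adjusted p = 0.341 by edgeR), and H3f3b, the other H3.3 gene, had -0.075. H2afz, the gene of H2A.Z, had 0.19, and H1f0, the linker histone of differentiated cells, had 0.11. H2afx, the gene of the DNA damage variant H2A.X, had -0.32 (SE 0.13, adjusted p = 0.276 by edgeR).

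Factors that act on histone genes and on their 3′ ends were next examined. Of 32 such genes tested, none had an adjusted p under 0.05 in edgeR or DESeq2, and 0 had an unadjusted p under 0.05 in edgeR. Their median was 0.014. Slbp had a log2 fold change of -0.15 (SE 0.12), Npat, the coactivator of histone transcription, had -0.016, and its partner Casp8ap2 had 0.11. Lsm10 and Lsm11 of the U7 snRNP had 0.065 and -0.24. Eri1, a nuclease that trims the stem-loop end, had 0.014, and Cpsf3 had 0.18. Of 43 DNA replication genes, 2 fell in edgeR (adjusted p under 0.05, beside 2.29% of all genes) and 41 did not pass, with a median of -0.055. DESeq2 gave 3 lower, with Rfc5 as the third, and its share of all genes at that rule was not taken. The 2 were Tyms, thymidylate synthase, at -0.78 (SE 0.13, adjusted p = 0.0202 by edgeR), and Rfc4, a subunit of the clamp loader, at -0.89 (SE 0.18, adjusted p = 0.0405 by edgeR). Tyms had 2097 and 1893 counts in WT against 956 and 1197 in Vil-CREPTKO. Rfc4 had 913 and 945 against 377 and 557. Pcna had -0.053 and Mcm2 -0.055.

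Other RNAs without a poly(A) tail and cell type markers were compared across the same libraries. Rn7sk, the mitochondrial share and the summed scaRNA and misc_RNA rows were higher in both Vil-CREPTKO libraries than in WT. The immune cell marker sum was lower in both, whereas the crypt epithelium, stromal and villus sums overlapped between the groups. Of 10 rows of other RNAs that lack a poly(A) tail, Rn7sk alone could be tested, and it is the RNA that holds the elongation factor P-TEFb inactive. Its level was 0.979 and 0.853 CPM in WT, and 6.63 and 2.02 CPM in Vil-CREPTKO, which is 2.23 on the log2 scale (SE 0.53, adjusted p = 0.0698 by edgeR), and DESeq2 called it higher. Rows annotated as snRNA summed to 17.96 and 11.8 CPM in WT, and to 17.2 and 14.6 CPM in Vil-CREPTKO. Rows annotated as snoRNA summed to 50.7 and 40.4 CPM against 47.8 and 50.3 CPM, so both of these classes overlapped between the groups. Those annotated as scaRNA summed to 4.64 and 3.58 CPM in WT, and to 4.83 and 5.38 CPM in Vil-CREPTKO. Those annotated as misc_RNA summed to 7.05 and 6.32 CPM against 12.8 and 7.41 CPM. In the scaRNA and misc_RNA rows both Vil-CREPTKO libraries thus lay above both WT libraries. Like Hist1h2bc and Hist1h1c, Rn7sk was highest in Vil-CREPTKO replicate 1. The same library was also highest in the misc_RNA sum, the mitochondrial share and the stromal and villus marker sums. The mitochondrial share of counts was 6.93% and 6.75% for WT but 10.2% and 7.62% for Vil-CREPTKO. Stromal markers, 7 of 13 tested, summed to 18.6 and 18.3 CPM in WT, and to 30.9 and 13.2 CPM in Vil-CREPTKO, and Pdgfra had 0 counts in Vil-CREPTKO replicate 2. Villus enterocyte markers (12 of 12 tested) summed to 20320 and 27173 CPM against 35686 and 22278 CPM. Crypt epithelium markers (12 tested) summed to 12315 and 12906 CPM against 12584 and 13589 CPM, and immune cell markers (15 tested) to 884 and 702 CPM against 667 and 565 CPM. The crypt epithelium markers stood at a median of -0.025 (log2) and the immune cell markers at -0.26. Stromal markers stood at 0.64 (5 of 7 tested were positive) and villus enterocyte markers at 0.22 (10 of 12 positive). These stromal and villus values were split by library. Relative to WT, replicate 1 of Vil-CREPTKO stood at 1.45 and 0.45 (list medians), but replicate 2 at -0.63 and -0.074. None of these marker genes had an adjusted p under 0.05 in edgeR. DESeq2 called 1 of them, Fabp1, higher. By unadjusted p under 0.05 in edgeR, 1 immune marker was higher and 2 were lower, and 1 villus marker was higher. The part of these differences in the histone values was not tested.

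The 4 libraries held between 47241049 and 49369315 counts. The targeted Rprd1b gave 3087 and 3030 counts in WT against 1142 and 1424 in Vil-CREPTKO, 45.3% of the WT level (log2 fold change -1.14, SE 0.12, adjusted p = 0.00410 by edgeR). The counts are per gene and do not separate the floxed exon. WT replicate 2 carried Xist at 863 CPM and no Y-linked reads, and in the remaining 3 Xist lay between 0.299 and 0.529 CPM beside 148 to 164 CPM from Y-linked genes. Without WT replicate 2 the log2 fold change of Hist1h2bc was 1.03.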

How the data were processed

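RNA sequencing of crypts gave 1 table of gene counts for 4 libraries (2 WT and 2 Vil-CREPTKO). The deposited counts are whole numbers per Ensembl gene that the authors made with Bowtie2 and RSEM against the reference transcripts of GRCm38.p6. The methods name a BGISEQ sequencer and the submitted record an Illumina instrument. Strand, library selection and tool versions are not given in the sources used here. The table is GRCm38 and was matched to GENCODE M21 (53360 of 53845 rows, 99.1%). Another 380 rows without a gene name held 0.178% to 0.247% of the counts.

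Groups were taken from the sample labels. Counts were scaled with TMM, filtered with filterByExpr and tested with edgeR 4.0.16 (glmQLFit and glmQLFTest, R 4.3.3) with group as the only term, and p-values were adjusted over 17504 genes by the Benjamini-Hochberg method. The scripts were tested on simulated data. A call needed an adjusted p under 0.05, and for the fold threshold a log2 fold change beyond 1. SE was the log2 fold change divided by the root of the F statistic. CPM used TMM-scaled library sizes, and CPM per kb divided by all annotated exon bases of a gene. Alternatives were DESeq2 1.42.0 (the tool of the study), other scalings and filters, a correction for GC content and length, a replicate block, leaving out each library, and members without near-identical copies. The libraries are biological replicates by the study's methods, and with 2 per group precision is low (common biological coefficient of variation 0.188). Replicate pairs differed beyond sampling noise (chi-square per gene 49.8 in WT and 70.1 in Vil-CREPTKO).

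The members and gene lists (histone variants, 3′ end factors, DNA replication, RNAs without a tail, cell type markers) were chosen with earlier results of these data known. Genes named with values were those with adjusted p under 0.05, the 2 highest WT levels per kb in each histone type, the extreme log2 fold changes in each cluster, the rows beside the count threshold, set genes of the lists, and Rprd1b. Others are named as the text says. Transcript sequences came from GENCODE M21 and promoter windows from RefSeq.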

Additional observations from a re-analysis of the deposited data

How the results depend on the processing

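Hist1h2bc had an adjusted p under 0.05 in edgeR in every setting run, and in DESeq2. With 1 library left out, the lone library of a group is assumed to vary like the other group. Its log2 fold change crossed 1 in some settings only, so the number of histone genes called higher (1) was 0 with library size scaling, 0 with the replicate block (log2 fold change 0.99, adjusted p = 0.0116 by edgeR), 0 with the GC and length correction, and 2 with no filter on low counts. Leaving out 1 library at a time it ranged from 0 (with WT replicate 1 or Vil-CREPTKO replicate 1 left out) to 2 (without Vil-CREPTKO replicate 2). The number with adjusted p under 0.05 and higher (1) was 2 with DESeq2, 2 with library size scaling and 3 with no filter, and 1 to 2 leaving out a library. The added genes were Hist1h1c (adjusted p 0.049 with library size scaling, 8.12e-05 with no filter) and, with no filter, Hist2h4 (0.0251). No setting gave a histone gene called lower. Outside the main edgeR fit, the share of all genes past an adjusted p of 0.05 without the fold threshold was not taken. The correlation of same-numbered deviations was 0.0277. With 2 libraries per group this value cannot settle whether the replicate numbers pair the samples. The block changed no other count of histone genes called.

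The median log2 fold change of the histone genes (0.28) ranged from 0.15 (without Vil-CREPTKO replicate 2) to 0.45 (without Vil-CREPTKO replicate 1) over the libraries left out. The log2 ratio of summed levels (0.74) ranged from 0.51 to 0.95 in the same way, and was 0.51 for the members other than Hist1h2bc and 0.23 for those other than Hist1h2bc and Hist1h1c, which were added after the data were seen. Values of low genes changed sign. Hist1h2ae (0.053) was -0.030 with library size scaling, and leaving out 1 library gave -0.15 to 0.28. Hist4h4 (0.12) was -0.14 with the replicate block, -0.27 without WT replicate 1, and -1.58 to 0.85 over the libraries left out. In the same way Hist1h3c (0.21) ranged from -0.32 to 0.59, Hist1h3g (-0.21) from -0.44 to 0.056 and Hist3h2a (-0.11) from -0.25 to 0.047. Library size scaling moved the median of all genes to -0.098. The cause of these changes was not tested. With 26 of 46 genes under 100 counts, depth limits most single-gene comparisons.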
